A study of Homo sapiens with 12 samples.

Results

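Complement is a set of plasma and cell surface proteins, many of them made by epithelial cells as well as by the liver, and 9 of its genes were measured here in MCF10A cells with inducible TAZ-4SA. The genes were chosen by name, as complement components and regulators, with earlier results of these data known. The study had already reported from its RNA-seq that TAZ activation suppressed complement components. Counts of the 9 genes beside all genes therefore describe the set and do not test it. Their identifiers matched 9 of the 60483 gene rows of each library. Complement can be started by the C1 complex, in which the proteases C1r and C1s act in turn, or by the alternative pathway, in which factor B joins C3b to form the enzyme that cleaves further C3. Every route meets at C3, whose fragments coat the target surface. The secreted C1 inhibitor (SERPING1) blocks C1r and C1s, the secreted factor I (CFI) cuts C3b and C4b, and the membrane proteins CD46, CD55 and CD59 protect the cell that carries them.

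MCF10A is an immortalised, non-transformed human mammary epithelial line. The cells had been transduced with a tet-inducible, constitutively active form of TAZ (TAZ-4SA), a transcriptional co-activator of the Hippo pathway that binds DNA through TEAD factors. Poly(A) RNA was sequenced from 12 libraries in 4 groups of 3, all of the same transduced line in medium with horse serum, EGF, hydrocortisone, cholera toxin and insulin. The groups were the transduced cells without doxycycline (No Dox, 0 h) and the same cells after 24, 48 or 72 h in 0.05 µg/mL doxycycline (Dox). Whether the line is 1 clone is not given in the sources used here, and neither Dox-treated cells without TAZ-4SA nor later No Dox cultures were analysed here, so Dox, TAZ-4SA and time in culture cannot be told apart.

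Libraries held 15382564 to 26570132 expected counts, and 17873 to 19432 genes had at least 1 count in a library. WWTR1, the gene of TAZ, was at 763 to 1061 CPM (read counts divided by the scaled library total) in the 9 Dox libraries and at 69.5 to 75.0 CPM in the 3 No Dox libraries. All 7 mammary epithelial markers were found in every group, with summed TPM (a transcript level per length and per library) of 4826 to 5123 in No Dox libraries, 3254 to 3485 at 24 h, 4741 to 4866 at 48 h and 5433 to 5869 at 72 h. The sum joins markers that moved in opposite directions. KRT8 and KRT18 had means of 211 and 368 CPM without Dox and 2229 and 1920 CPM at 72 h. KRT17 and KRT5 had means of 2366 and 3521 CPM without Dox and 600 and 1651 CPM at 72 h. Genes used as markers of other complement-making cells also moved in this line. Leukocyte and macrophage markers summed to 7.13 to 10.75 TPM over the Dox libraries and 22.94 to 31.88 TPM in No Dox libraries, with 5 or 6 of 9 at 0 in every group, PTPRC (CD45) among them at 24, 48 and 72 h. Most of the No Dox sum was CD14, with a mean of 19.6 TPM, against 2.40, 3.25 and 2.49 TPM at 24, 48 and 72 h. CSF1R went the other way, with means of 1.81, 2.70 and 2.21 TPM at those times and 1.43 TPM without Dox. Fibroblast markers summed to 1.17 to 13.87 TPM over the Dox libraries and 35.07 to 36.40 TPM in No Dox libraries, with COL1A2, COL3A1, PDGFRA and THY1 at 0 throughout. Here DCN made up most of the No Dox sum, with a mean of 32.3 TPM. Endothelial markers summed to 0.60 to 3.11 TPM over the Dox libraries and 8.87 to 10.61 TPM in No Dox libraries, with 1 or 2 of 5 at 0 in every group, and hepatocyte markers summed to at most 0.49 TPM, with 2 to 4 of 5 at 0. All libraries were of the same transduced line, so these genes are read as its own transcripts and not as other cell types. Their part in the results was not tested. In bulk RNA, fewer cells with a transcript and less of it per cell cannot be told apart.

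On GRCh38 with GENCODE version 44 names, the initiating proteases lie side by side on chromosome 12, C1R (ENSG00000159403) at 7080214 to 7092540 on the minus strand and C1S (ENSG00000182326) at 6988259 to 7071032 on the plus strand. C3 (ENSG00000125730) is on chromosome 19 at 6677704 to 6730562 and CFB (ENSG00000243649) on chromosome 6 at 31945650 to 31952086. The soluble regulators are SERPING1 (ENSG00000149131, chromosome 11, 57597387 to 57619171) and CFI (ENSG00000205403, chromosome 4, 109731008 to 109802150). The membrane regulators CD46 (ENSG00000117335, 207752037 to 207795513) and CD55 (ENSG00000196352, 207321519 to 207386804) share chromosome 1, and CD59 (ENSG00000085063) is on chromosome 11 at 33703010 to 33736479. Reads that fit more than 1 gene added an SD of up to 5.55% to the CFB count, which overlaps a readthrough gene, and of up to 1.25% to C1R, which overlaps C1RL. For the other 7 genes it was at most 0.0413%.

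RefSeq promoter windows (GRCh38.p14, 250 bases before to 50 after a start) were found for 6 of the 9 genes, namely C1R, CFB, CFI, CD46, CD55 and CD59. The window nearest to the gene's annotated 5′ end was read where several were listed. Those of C1R and CFB, which fell at every time in Dox, are shown beside those of the membrane regulators, which changed far less or not at all by the fold threshold used below. Capitals mark matches, on either strand, to the NF-kB motif, the STAT motif TTCNNNGAA, the interferon-response core (GAAA and GAAA with NN between them), the C/EBP motif TTNNGCAA, the AP-1 motif TGANTCA or the TEAD motif GGAATG.
C1R promoter, chr12:7092396-7092695, minus strand: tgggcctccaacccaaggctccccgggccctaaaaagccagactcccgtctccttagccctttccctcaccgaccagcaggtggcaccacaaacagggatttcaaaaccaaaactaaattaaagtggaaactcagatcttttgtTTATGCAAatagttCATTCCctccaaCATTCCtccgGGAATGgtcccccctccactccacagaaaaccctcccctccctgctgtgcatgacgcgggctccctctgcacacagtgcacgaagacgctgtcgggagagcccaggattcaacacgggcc
CFB promoter, chr6:31945845-31946144, plus strand: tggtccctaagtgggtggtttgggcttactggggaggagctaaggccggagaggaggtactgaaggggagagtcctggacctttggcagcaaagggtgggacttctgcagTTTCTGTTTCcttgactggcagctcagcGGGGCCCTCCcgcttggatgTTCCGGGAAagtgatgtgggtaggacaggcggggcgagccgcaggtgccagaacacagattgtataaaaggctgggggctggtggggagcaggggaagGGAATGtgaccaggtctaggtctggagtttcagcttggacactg
CD46 promoter, chr1:207751788-207752087, plus strand: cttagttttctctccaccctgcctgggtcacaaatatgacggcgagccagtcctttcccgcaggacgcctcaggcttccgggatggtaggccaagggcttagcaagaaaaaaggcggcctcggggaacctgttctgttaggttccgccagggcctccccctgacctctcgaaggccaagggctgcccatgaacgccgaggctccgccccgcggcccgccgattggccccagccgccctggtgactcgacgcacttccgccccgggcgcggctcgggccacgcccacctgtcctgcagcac
CD55 promoter, chr1:207321428-207321727, plus strand: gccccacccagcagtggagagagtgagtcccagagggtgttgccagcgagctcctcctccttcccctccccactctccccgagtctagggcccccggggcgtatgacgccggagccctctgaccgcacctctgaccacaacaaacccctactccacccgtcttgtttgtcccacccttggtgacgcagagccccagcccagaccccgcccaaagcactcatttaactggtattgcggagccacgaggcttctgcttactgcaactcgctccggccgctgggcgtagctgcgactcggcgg
CD59 promoter, chr11:33736430-33736729, minus strand: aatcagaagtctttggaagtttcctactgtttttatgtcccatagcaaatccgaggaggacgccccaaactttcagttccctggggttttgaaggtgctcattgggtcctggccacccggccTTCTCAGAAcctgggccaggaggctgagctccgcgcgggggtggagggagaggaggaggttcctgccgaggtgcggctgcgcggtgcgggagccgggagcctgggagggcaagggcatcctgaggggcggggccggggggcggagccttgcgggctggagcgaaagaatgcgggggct

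The C1R window held 1 C/EBP match, starting 106 bases before the start, followed by 3 TEAD matches starting 92, 80 and 70 bases before it. At least 1 TEAD match was present in 14% of the 35116 windows of the same length and 3 or more in 45 of them (0.128%), a count looked up after the C1R matches were seen. The CFB window held 4 matches, with the interferon-response core at 140, the NF-kB motif at 112 and the STAT motif at 92 bases before the start and a TEAD match beginning 6 bases past it. These motifs were in 3.57%, 11.3%, 7.66% and 14% of all windows, in that order, while the C/EBP motif was in 10.5% and the AP-1 motif in 7.71%. CD59 had 1 STAT match and the CFI, CD46 and CD55 windows had no match to these letters. No 2 matches overlapped. A match describes the letters only and shows no binding.

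Against No Dox, 8 of the 9 genes fell at 24 h, 6 at 48 h and 5 at 72 h, and none was called higher. A gene was called where edgeR's quasi-likelihood test gave an adjusted p under 0.05 and the absolute log2 fold change was at least 1. Over all 14822 genes tested, 17.7%, 14.4% and 12.3% were called lower at 24, 48 and 72 h. The 9 genes had a median log2 fold change of -2.94, -3.17 and -2.46 at 24, 48 and 72 h, beside -0.028, -0.013 and -0.019 for all genes tested. C1R, C1S, C3, CFB and SERPING1 were called lower at all 3 times, as were 8.97% of all genes tested. By adjusted p alone all 9 genes passed at each time, as did 75.2%, 71.8% and 69.2% of all genes tested. Every Dox library was below every No Dox library for 8 of the 9 genes at 24 h and for 9 at 48 and 72 h, as was so for 39.6%, 37.4% and 36.8% of all genes tested. The 3 comparisons share the same No Dox libraries. Separate cultures are not stated for the 3 libraries of a group, so a p-value covers the spread between libraries, which may be technical alone.

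**Figure D1:**
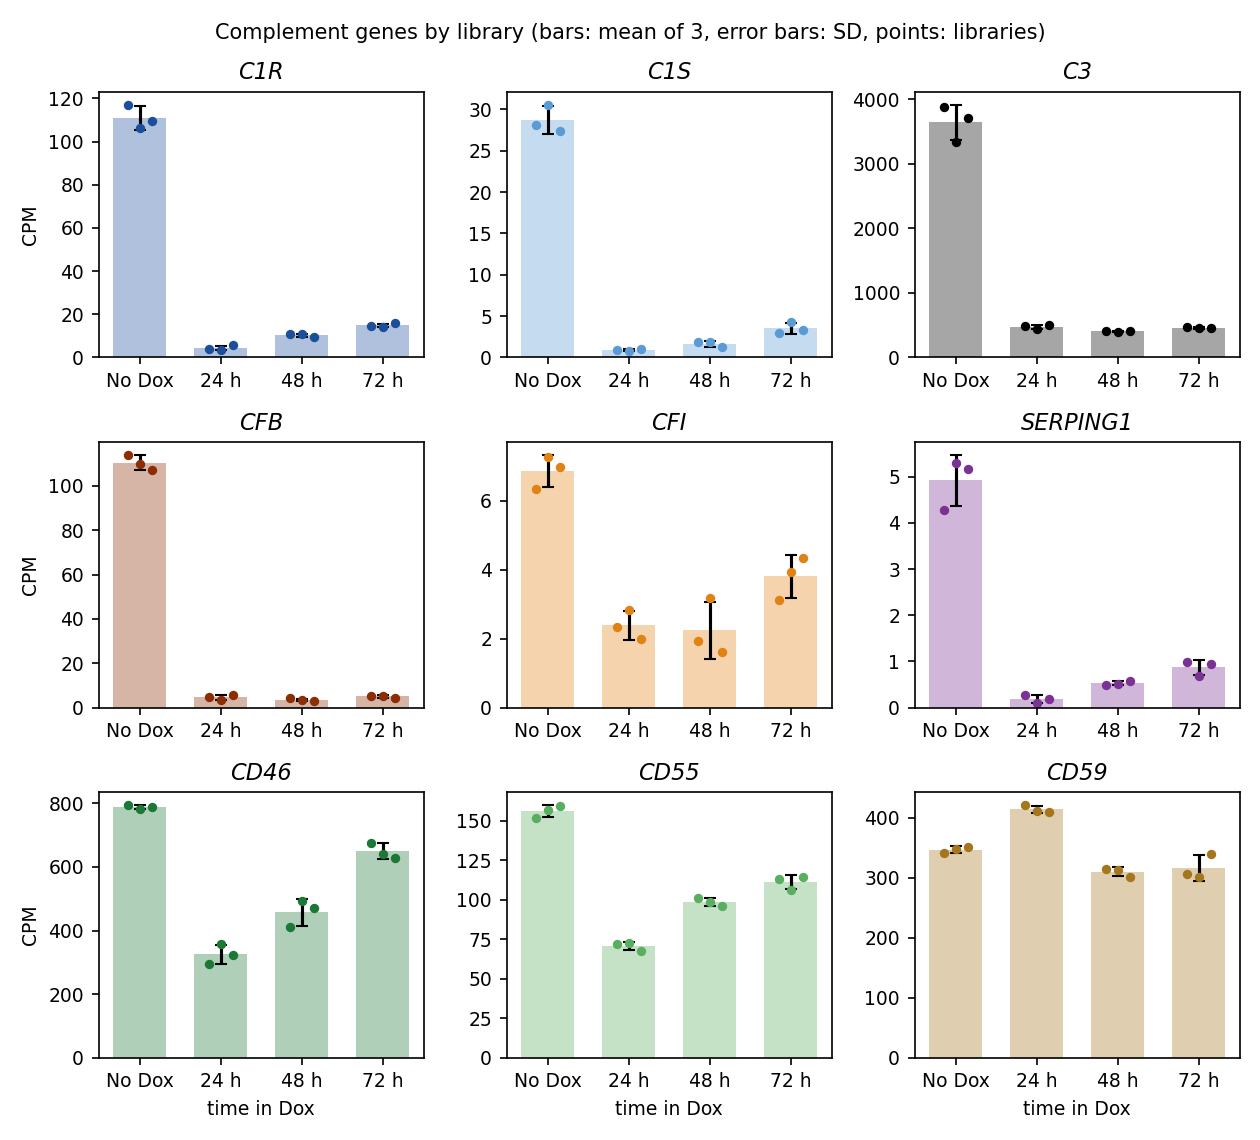
CPM (vertical axis, from 0, a scale of its own for each gene) of the 9 complement genes without Dox and after 24, 48 and 72 h in Dox. Points are single libraries, bars the mean of 3 and error bars the SD. The No Dox libraries are the highest for 8 genes, and for CD59 the 24 h libraries are.

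C1R, the protease that activates itself and then C1s, fell 25.9-fold at 24 h. It was at 117, 106 and 110 CPM in the No Dox libraries, at 4.12, 3.38 and 5.57 CPM at 24 h, at 10.7, 10.7 and 9.40 CPM at 48 h and at 14.6, 14.2 and 15.8 CPM at 72 h. No group overlapped another, with 24 h the lowest and each later Dox group above the one before. Its log2 fold change against No Dox was -4.69 (SE 0.10, adjusted p 1.323e-19, edgeR) at 24 h, -3.43 at 48 h and -2.90 at 72 h.

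C1S, the protease that C1r activates and that cleaves C4 and C2, had the lowest log2 fold change of the 9 genes at 24 h. It stood at 28.2, 30.6 and 27.4 CPM in the No Dox libraries, then at 0.936, 0.784 and 1.03 CPM at 24 h, 1.84, 1.87 and 1.23 CPM at 48 h and 2.98, 4.26 and 3.36 CPM at 72 h. The 4 groups were again apart, in the same order as for C1R. The log2 fold change of C1S was -4.97 (SE 0.16, adjusted p 7.057e-17, edgeR) at 24 h, -4.09 at 48 h and -3.04 at 72 h, which at 72 h is 8.22-fold lower. Over the alternative fits it ranged from -4.18 to -3.42 at 48 h and from -3.16 to -2.56 at 72 h. Per length, C1R was 4.63 ± 1.43 times C1S in TPM at 24 h, 3.40 ± 0.596 times at 48 h, 2.67 ± 0.214 times at 72 h and 3.15 ± 0.388 times in No Dox libraries (SD, n = 3), and the range at each time overlapped that without Dox.

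SERPING1, the C1 inhibitor, was scarce already without Dox and fell with its target proteases. Its CPM was 4.29, 5.30 and 5.17 without Dox, 0.281, 0.0980 and 0.182 at 24 h, 0.497, 0.522 and 0.584 at 48 h and 0.978, 0.689 and 0.953 at 72 h. The 4 groups did not overlap, but the 24 h values rest on 11 reads in all 3 libraries together, against 282 reads in the No Dox libraries. The log2 fold change against No Dox was -4.66 (SE 0.33, adjusted p 4.882e-11, edgeR) at 24 h, -3.20 at 48 h and -2.46 at 72 h. Over the alternative fits it ranged from -5.10 to -3.76 at 24 h and from -2.55 to -2.34 at 72 h. The ratio of SERPING1 TPM to the summed TPM of C1R and C1S was 0.129, 0.0687 and 0.0912 at 24 h and 0.0523, 0.0616 and 0.0726 in No Dox libraries, so the groups overlapped. The log2 differences from No Dox at 24, 48 and 72 h were 0.60, 0.45 and 0.27 (exact permutation test, two-sided, p = 0.2, 0.5 and 0.6, adjusted p = 0.6 for each, smallest possible p 0.1), and with counts in place of TPM it was -0.088 at 24 h. With 3 libraries against 3, this test could not reach 0.05 whatever the change.

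C3, the component on which all routes meet, was the most abundant of the 9 transcripts per length without Dox and fell at all 3 times. It was at 3879, 3340 and 3704 CPM in the No Dox libraries, 491, 439 and 495 CPM at 24 h, 407, 397 and 411 CPM at 48 h and 474, 455 and 449 CPM at 72 h. Every Dox library was far below every No Dox library, and the Dox groups lay close together. The log2 fold change was -2.94 (SE 0.06, adjusted p 2.451e-20, edgeR) at 24 h, -3.17 at 48 h and -2.99 at 72 h, that is 7.66-, 8.99- and 7.93-fold lower. C3 took 0.0469%, 0.0404% and 0.0460% of all counts at 24, 48 and 72 h and 0.368% in No Dox libraries. Its effective length, the mean usable length of the transcripts that RSEM assigned to the gene, was 2332 ± 123 nt at 24 h, 2330 ± 87.5 nt at 48 h and 2072 ± 132 nt at 72 h, against 2735 ± 25.5 nt without Dox (SD, n = 3). The Dox and No Dox ranges of this length did not overlap at any time (exact permutation test, p = 0.1 at each time, the smallest possible, adjusted p = 0.3 over 27 comparisons). C3 was not alone in this, as 9 of the 27 comparisons had no overlap. The others were C1S at 48 and 72 h, CFB at 72 h, CFI and SERPING1 at 24 h and CD59 at 72 h. Over all alternative fits, those that divide by this length included, the C3 log2 fold change stayed between -3.0 and -2.66 at 24 h and between -3.04 and -2.51 at 72 h.

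CFB, the protease of the alternative pathway, fell about as far as C1R at 24 h and was as low at 72 h. The No Dox libraries had 114, 110 and 107 CPM, the 24 h libraries 4.82, 3.33 and 5.63 CPM, the 48 h libraries 4.12, 3.26 and 3.05 CPM and the 72 h libraries 5.23, 5.39 and 4.48 CPM. Dox and No Dox libraries were apart, while the 24 h libraries overlapped both later groups. The log2 fold change of CFB was -4.60 (SE 0.11, adjusted p 4.042e-19, edgeR) at 24 h, -4.98 at 48 h and -4.47 at 72 h, so at 72 h it was 22.1-fold lower. The reads it may share with its readthrough partner are small beside that difference.

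CFI, the serine protease that inactivates C3b and C4b with CD46 as a cofactor, fell less. It was at 6.36, 7.26 and 7.0 CPM without Dox, 2.34, 2.84 and 2.0 CPM at 24 h, 1.94, 3.18 and 1.62 CPM at 48 h and 3.13, 3.95 and 4.35 CPM at 72 h. All Dox libraries were below all No Dox libraries, and the 48 h group overlapped both other Dox groups. CFI was called lower at 24 h (log2 fold change -1.51, SE 0.21, adjusted p 1.385e-06, edgeR) and 48 h (-1.57), and at 72 h its log2 fold change of -0.84 passed the adjusted p (6.816e-04) without reaching the fold threshold. With effective lengths in the fit, CFI was called at 72 h as well, at -1.09 with edgeR and -1.10 with DESeq2.

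**Figure D2:**
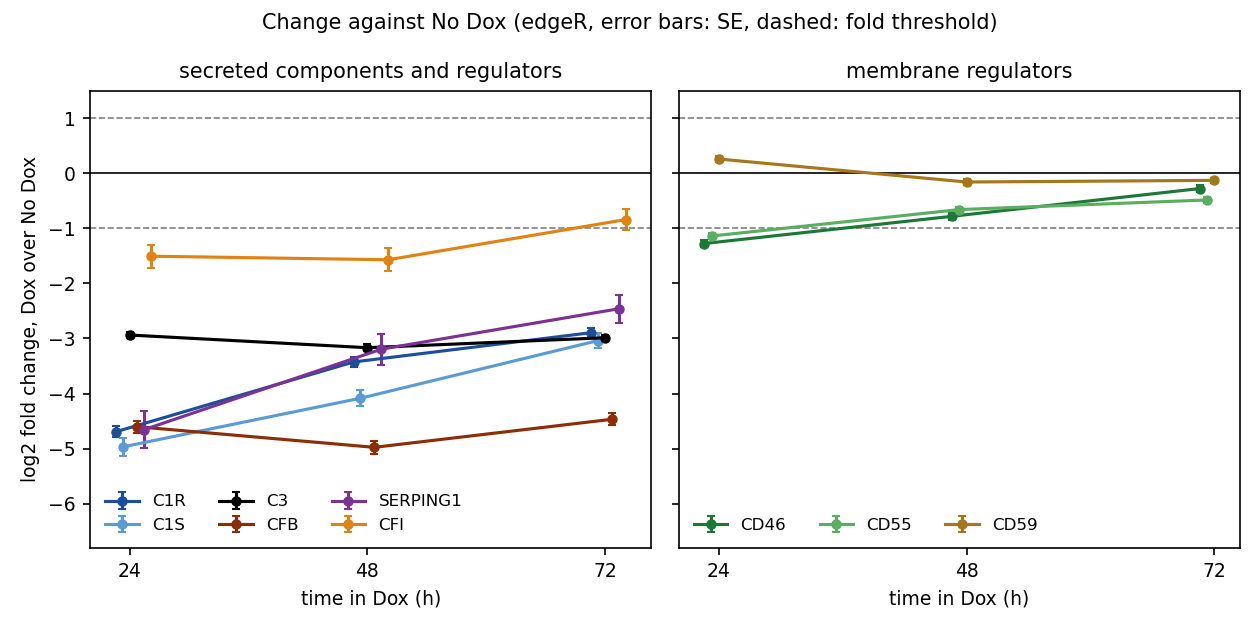
Log2 fold change (vertical axis) of each Dox group over No Dox by time in Dox (horizontal axis, h), for the 6 secreted components and regulators on the left and the 3 membrane regulators on the right. Points are edgeR estimates with their SE, dashed lines mark the fold threshold, and points are shifted sideways for legibility. CFB and C3 stay level while C1R, C1S and SERPING1 move up with time, and CD59 stays near 0.

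The membrane regulators changed least. CD46, the transmembrane cofactor for factor I, was at 794, 782 and 787 CPM without Dox, 296, 356 and 323 CPM at 24 h, 411, 492 and 470 CPM at 48 h and 676, 641 and 629 CPM at 72 h. The 4 groups were apart, with the lowest values at 24 h. The log2 fold change of CD46 was -1.28 (SE 0.06, adjusted p 1.468e-13, edgeR) at 24 h, and the values of -0.78 at 48 h and -0.28 at 72 h passed the adjusted p but not the fold threshold.

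CD55, a GPI-anchored protein that speeds the decay of the C3-cleaving enzymes, followed the same order. Its libraries had 152, 157 and 160 CPM without Dox, 71.8, 72.8 and 67.6 CPM at 24 h, 101, 98.6 and 96.0 CPM at 48 h and 113, 106 and 114 CPM at 72 h, with no overlap between groups. It was called lower at 24 h (log2 fold change -1.14, SE 0.05, adjusted p 1.902e-14, edgeR), and its log2 fold changes at the later times, -0.66 and -0.49, were short of the fold threshold.

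CD59, the GPI-anchored inhibitor of the membrane attack complex, was the single gene of the 9 that was called at no time. It had 340, 347 and 352 CPM without Dox, 421, 411 and 409 CPM at 24 h, 315, 313 and 301 CPM at 48 h and 307, 301 and 340 CPM at 72 h. The 24 h libraries were above all others, and the highest 72 h library nearly reached the lowest No Dox library. CD59 had log2 fold changes of 0.26 (SE 0.05, adjusted p 6.062e-05, edgeR), -0.16 and -0.13 at 24, 48 and 72 h. Those values passed the adjusted p and are small, and the 72 h value was 0.026 with limma on log2(TPM + 0.1).

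The next question was whether levels changed further between the times in Dox. From 24 to 48 h, 2 of the 9 genes were called higher (3.08% of all genes tested), C1R at a log2 fold change of 1.27 (SE 0.13, adjusted p 1.272e-07, edgeR) and SERPING1 at 1.46 (SE 0.45, adjusted p 0.01464). The SERPING1 call rests on the few reads at 24 h, and it was lost with effective lengths in the fit (1.09 with edgeR, 1.12 with DESeq2) and without Dox 24 h replicate 2 (1.14). From 48 to 72 h, C1S alone was called higher (2.3% of all genes tested), at 1.05 (SE 0.18, adjusted p 1.304e-04, edgeR). The C1S step was under the fold threshold with effective lengths (0.90 with edgeR), without Dox 48 h replicate 3 (0.90) and without Dox 72 h replicate 2 (0.92). From 24 to 48 h C1S had 0.88, under the threshold. It was called there with effective lengths (1.67 with edgeR, 1.66 with DESeq2), with limma on log2(TPM + 0.1) (1.56) and without Dox 48 h replicate 3 (1.02). Which of the C1S steps was called thus depended on the fit. By adjusted p alone, 7 of the 9 genes passed from 24 to 48 h, 7 from 48 to 72 h and 7 from 24 to 72 h, as did 36.5%, 38.7% and 60.7% of all genes tested.

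Over the whole step from 24 to 72 h, C1R, C1S and SERPING1 were called higher (8.28% of all genes tested), by log2 fold changes of 1.80 (SE 0.12), 1.93 (SE 0.21) and 2.20 (SE 0.41), with adjusted p of 7.769e-11, 8.664e-08 and 9.806e-05 by edgeR. These 3 genes encode the C1 proteases and their inhibitor. CD46, at 0.997 (SE 0.06), lay just under the threshold, and was called without Dox 24 h replicate 2 (1.07) and in several other fits. C3 had a log2 fold change of -0.050 (SE 0.06, adjusted p 0.4518, edgeR) and CFB one of 0.13 (SE 0.15, adjusted p 0.4597). The sign of the C3 value turned with effective lengths in the fit (0.10 with edgeR) and that of CFB without Dox 24 h replicate 2 (-0.058). Even at 72 h C1R was 7.44-fold, C1S 8.22-fold and SERPING1 5.51-fold lower than in No Dox libraries. Tested over all times together, 8 of the 9 genes were called (35.9% of all genes tested), CD59 being the exception.

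Compared per length, the order of the 9 transcripts changed. In No Dox libraries C3 led with 1586 ± 115 TPM (SD, n = 3), followed by CD59, CD46, CFB, CD55, C1R, C1S, CFI and SERPING1 down to 4.73 ± 0.585 TPM, and only CFI and SERPING1 had overlapping ranges among neighbours. At 24 h the order was CD59 (426 ± 14.7 TPM), C3 (250 ± 21.3 TPM), CD46, CD55, CFB, C1R, CFI, C1S and SERPING1 (0.263 ± 0.0907 TPM), with C1R overlapping CFB above it and CFI below it. At 48 h C1R (5.50 ± 0.166 TPM) was above CFB (3.42 ± 0.947 TPM), and CFI and C1S overlapped. At 72 h CD46 (280 ± 24.4 TPM) and C3 (278 ± 4.93 TPM) overlapped just behind CD59 (340 ± 8.51 TPM), as did C1R with CFB and CFI with C1S.

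The 9 genes summed to 863 ± 6.66 TPM at 24 h, 799 ± 14.9 TPM at 48 h and 988 ± 35.8 TPM at 72 h, against 2516 ± 111 TPM without Dox (SD, n = 3). C3 made up 29.0%, 27.2% and 28.2% of that sum at 24, 48 and 72 h and 63.0% in No Dox libraries. CD46, CD55 and CD59 together made up 69.9%, 71.2% and 69.6% at those times and 29.5% in No Dox libraries. The ratio of their summed TPM to that of C3 was 2.27, 2.81 and 2.22 at 24 h, 2.50, 2.72 and 2.64 at 48 h and 2.50, 2.52 and 2.40 at 72 h, against 0.431, 0.502 and 0.474 without Dox. In this ratio every Dox library was above every No Dox library. The log2 differences from No Dox at 24, 48 and 72 h were 2.37, 2.48 and 2.40 (exact permutation test, two-sided, p = 0.1 at each time, which is the smallest p that 3 against 3 allows).

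**Figure D3:**
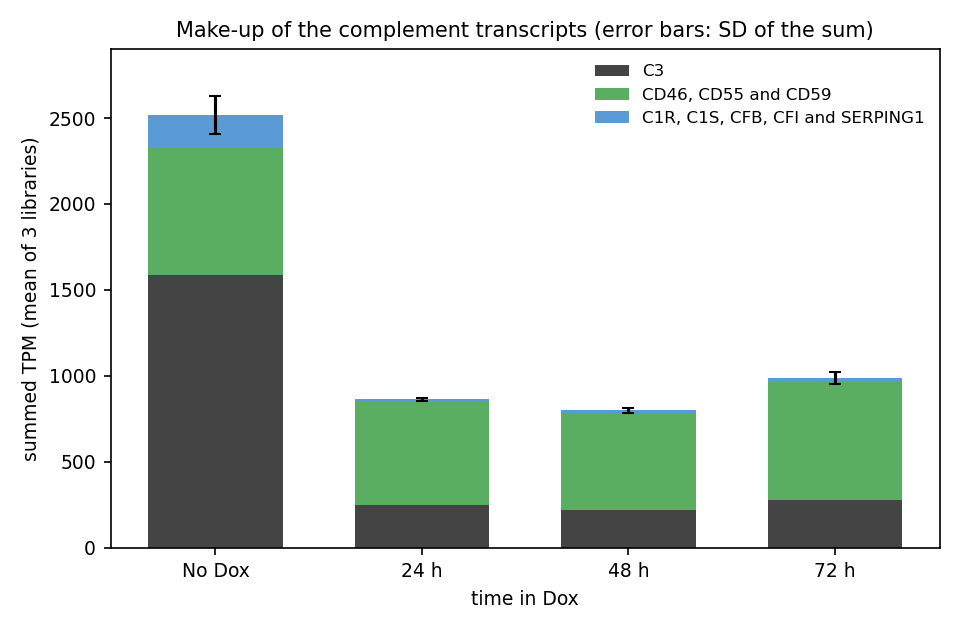
Summed TPM (vertical axis, from 0) of the 9 complement genes without Dox and at 24, 48 and 72 h in Dox, as stacked means of 3 libraries, with C3 at the bottom, the 3 membrane regulators in the middle and the other 5 genes on top. Error bars are the SD of the sum. The C3 block takes 63.0% of the column without Dox and 27.2% to 29.0% in Dox, while the membrane block is 604, 569 and 688 TPM at 24, 48 and 72 h and 741 TPM without Dox.

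A list of 54 other complement genes shows what else of the pathway these cells transcribed. Of these, 18 had enough reads to be tested. All 10 recognition genes, among them C1QA, C1QB, C1QC and MBL2, and all 6 terminal genes, C6 to C9, were below the filter in these libraries. At 24 h 10 of the 18 fell and 5 rose, at 48 h 8 fell and 5 rose, and at 72 h 9 fell and 4 rose, where 17.7%, 14.4% and 12.3% of all genes tested were called lower and 12%, 10.6% and 10.2% higher. The 18 genes had a median log2 fold change of -1.73, -0.074 and -1.04 at 24, 48 and 72 h, and only 8 of them passed a filter of 5 CPM, of which 7, 6 and 6 were called.

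Among the proteases and opsonins, C1RL, C4A, C4B and C5 were called lower at all 3 times. C1RL, the C1r-like protease beside C1R, was at 7.87 ± 0.711 CPM at 24 h, 8.61 ± 0.699 CPM at 48 h and 14.2 ± 0.855 CPM at 72 h, against 46.3 ± 2.55 CPM without Dox (SD, n = 3). C5, from which the terminal pathway starts, was at 1.75 ± 0.542, 2.42 ± 0.217 and 3.40 ± 0.380 CPM at those times and 7.16 ± 0.776 CPM without Dox. C4B had a log2 fold change of -3.09 at 24 h and -1.63 at 72 h, but C4A and C4B are near-identical copies and shared reads added an SD of up to 49.4% to a C4B count, so neither can be read by itself. MASP2, a lectin pathway protease, was called higher at 24 h only, below 1 CPM in every group.

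Soluble regulators mostly fell too. CLU (clusterin), which binds terminal complexes, was called lower at all 3 times, at log2 fold changes of -1.86, -1.33 and -1.07. CFP (properdin), which stabilises the alternative pathway enzyme, was called lower at all 3 times too, but from a low level. Its highest group mean was 0.763 CPM. PROS1, protein S, which binds the C4b-binding protein, was called lower at 24 h (-1.71), and its log2 fold changes of -0.19 at 48 h and 0.68 at 72 h were short of the fold threshold. C4BPB, the beta chain of the C4b-binding protein, had no read in any No Dox library and 15, 68 and 34 reads in all at 24, 48 and 72 h. With 3 counts over the No Dox group as the floor and the Dox reads taken as counted, it was at least 4.96-, 22.4- and 10.5-fold higher.

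Some membrane regulators and receptors rose at all 3 times, as C4BPB did. THBD (thrombomodulin), which promotes inactivation of C3b beside its role in coagulation, was at 53.2 ± 3.39, 57.2 ± 1.54 and 84.0 ± 6.05 CPM at 24, 48 and 72 h, against 23.6 ± 0.805 CPM without Dox (SD, n = 3), and its log2 fold change at 72 h was 1.83 (SE 0.07, adjusted p 8.165e-16, edgeR). ITGB2, the beta chain shared by the leukocyte complement receptors, was at 61 ± 6.03, 112 ± 2.72 and 136 ± 10.2 CPM, against 15.4 ± 1.30 CPM without Dox, with a log2 fold change of 3.15 at 72 h. Its partners in those receptors, ITGAM and ITGAX, were among the genes below the filter. SUSD4 rose at all 3 times and C5AR2, a receptor for C5a, fell at all 3, both from low levels.

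**Figure D4:**
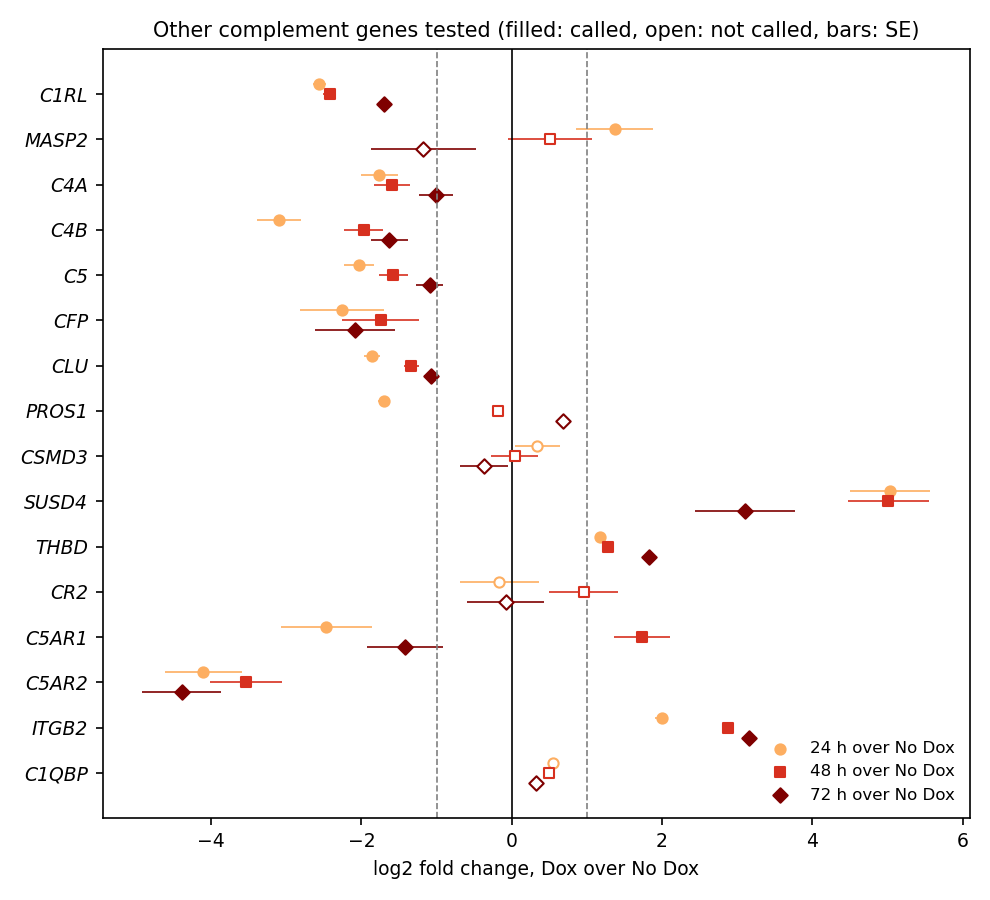
Log2 fold change (horizontal axis) of each Dox group over No Dox for 16 of the 18 other complement genes tested (C4BPB, with no read without Dox, is not drawn). Circles, squares and diamonds are 24, 48 and 72 h, filled where called, and bars are SE from edgeR. C1RL, C4A, C4B, C5, CFP, CLU and C5AR2 lie left of the threshold at every time, and SUSD4, THBD and ITGB2 right of it.

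Other lists were set beside the complement genes because C1R, C1S, C3, CFB and SERPING1 are known to be raised by inflammatory cytokines as acute phase genes are. Of 16 acute phase genes 7 were tested, and 7 fell at 24 h, 6 at 48 h and 5 at 72 h, with none called higher, where 17.7%, 14.4% and 12.3% of all genes tested were called lower. SERPINA3 was at 6.36 ± 0.561, 10.3 ± 3.32 and 18.4 ± 1.60 CPM at 24, 48 and 72 h, against 185 ± 6.17 CPM without Dox (SD, n = 3). SERPINA1 had log2 fold changes of -1.95, -2.33 and -1.84, while SAA1 fell at 24 h (-1.69) and had log2 fold changes of -0.29 at 48 h and 0.13 at 72 h.

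Of 26 genes of cytokines, their receptors and transcription factors that act on complement genes, 22 were tested. At 24, 48 and 72 h, 10, 6 and 6 of them were called lower, beside 17.7%, 14.4% and 12.3% of all genes tested, and 0, 1 and 1 were called higher, beside 12%, 10.6% and 10.2%. The most abundant of those called were CEBPB, CEBPD and IFNGR1. CEBPD, a C/EBP factor, had log2 fold changes of -2.65, -1.50 and -1.08 at 24, 48 and 72 h, IFNGR1, a chain of the interferon-gamma receptor, had -2.32, -1.80 and -1.67, and CEBPB was called lower at 24 h only (-1.58). Their part in the complement genes' levels was not tested.

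Because CD55 and CD59 reach the surface on a GPI anchor, 28 genes of anchor assembly were also read, of which 27 were tested. At 24 h 4 of them were called lower and 1 higher, at 48 h 3 lower and 2 higher, and at 72 h 1 lower and 1 higher. Over all genes tested, 17.7%, 14.4% and 12.3% were called lower at 24, 48 and 72 h and 12%, 10.6% and 10.2% higher. The counts of this list were below those shares in both directions at each time. The most abundant genes called were PIGK, with a log2 fold change of 1.14 at 72 h, PGAP1, with -1.37 at 24 h, and PIGA, with 1.07 at 24 h.

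Genes whose 3 log2 fold changes lay nearest to those of the 5 complement genes that fell throughout were read from 10718 protein-coding genes with at least 5 CPM in their highest group, as a description over 3 values that share their No Dox libraries. For C1R the nearest were MAP2 (distance 0.162) and TCP11L2 (0.416), and for C1S they were LCN2 (0.224) and SERPINA3 (0.311), both acute phase genes. For C3 they were PC (0.197) and KIAA0513 (0.226), for CFB VNN1 (0.244) and RAB7B (0.269), and for SERPING1 BCL6 (0.136) and PNRC1 (0.364). LCN2 had log2 fold changes of -5.12, -4.04 and -3.20 at 24, 48 and 72 h, beside -4.97, -4.09 and -3.04 for C1S.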

How the data were processed

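Poly(A)-selected, dUTP-stranded paired-end RNA-seq libraries of 12 samples were analysed. STAR alignments to GRCh38 with GENCODE version 22 were quantified by the authors with RSEM, whose deposited expected counts divide ambiguous reads among genes. The sources used here give no STAR or RSEM version. The deposited TPM values (per length and per library) gave levels between genes, the deposited FPKM values were an alternative, and the effective lengths and posterior SDs of counts deposited by the authors served as other columns.

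Expected counts were rounded, filtered with filterByExpr (14822 genes kept), scaled with TMM factors and fitted in 1 edgeR quasi-likelihood model with 4 group means and no replicate block, with 8 residual degrees of freedom and a biological coefficient of variation of 5.71%. Tools were edgeR 4.0.16 in R 4.3.3, with DESeq2 1.42.0 and limma 3.58.1 for alternatives. Adjusted p is Benjamini-Hochberg over all genes tested. The SE given with edgeR values was worked back from its F statistic, as the absolute log2 fold change over the square root of F. The thresholds were those of the study, an adjusted p of 0.05 and an absolute log2 fold change of 1. The fit was tested on simulated data. Ratios and effective lengths used two-sided exact permutation tests. Bounds against 0 counts take 3 counts as the floor. They cover counting error of the group at 0 only, with the other group's count taken as it stands. PCR copies could not be told from separate molecules.

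GENCODE version 44 gave names and coordinates, matched by stable identifier, and promoters came from the RefSeq table for GRCh38.p14. The members and lists were chosen with earlier results of these data known. All 9 genes are named. Of the other complement genes, those called against No Dox are named, with values for the 8 of highest CPM (1 of them is not reported here), of the other lists up to 3 called genes of highest CPM, and the 2 nearest patterns of each of 5 genes. MASP2, C4BPB, SUSD4, C5AR1, C5AR2, CFP and C4A fall outside the 8. Alternatives were other scaling factors and filters, effective lengths, DESeq2, limma on log2(TPM + 0.1), the fold threshold tested itself (glmTreat) or dropped, a fit of the compared groups alone, a replicate block, and each library left out in turn. No pairing by replicate number was seen, though it is not excluded. Deviations of 18 same-number pairs had correlations of -0.205 to 0.32 (mean 0.0173), and 3 exceeded 0.1. Those of 36 pairs with other numbers were -0.348 to 0.259 (mean -0.0091), and 11 exceeded 0.1. No 2 libraries of a group agreed within sampling noise (chi-square per degree of freedom 2.56 to 8.60).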

Additional observations from a re-analysis of the deposited data

Results flagged for a closer look

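The changes against No Dox of 3 genes differed between times in Dox by the test of the later against the earlier Dox libraries (edgeR, adjusted p and fold threshold as above). For C1R the difference in log2 fold change was 1.27 at 48 h against 24 h and 1.80 at 72 h against 24 h. For C1S it was 1.05 at 72 h against 48 h and 1.93 at 72 h against 24 h. For SERPING1 it was 1.46 at 48 h against 24 h and 2.20 at 72 h against 24 h. Over all genes tested, 3.08% were called higher at 48 h against 24 h, 2.3% at 72 h against 48 h and 8.28% at 72 h against 24 h.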

How the results depend on the processing

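Of the fold changes of the 9 genes under the alternatives, 959 kept direction and call, 40 passed and 12 lost the call, and 9 turned sign. Many of the 40 came from dropping the fold threshold, where the same estimates are called by adjusted p alone. Calls against No Dox at 24 and 48 h held throughout for C1R, C1S, C3, CFB, CFI, SERPING1 and, at 24 h, CD46 and CD55, except that SERPING1 is not tested at 5 CPM. Without the fold threshold, 9 genes passed at 72 h against No Dox and 7 at each step between Dox times. For 48 h against 24 h, the 2 calls became 1 with genes of at least 5 CPM, 0 with glmTreat and 1 to 3 when a library was left out. With effective lengths in edgeR or DESeq2 and with limma on TPM, C1S was called at that step and SERPING1 was not. For 72 h against 48 h, the 1 call became 0 with effective lengths in edgeR or DESeq2, with limma on TPM and with glmTreat, and 0 to 2 when a library was left out. Other complement genes called became 7, 6 and 6 at 24, 48 and 72 h with genes of at least 5 CPM, where 8 were tested, and 8 at 72 h with glmTreat, against 15, 13 and 13.

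Signs turned for CD59 at 72 h against No Dox with limma on TPM (0.026), for C3 at 72 h against 24 h with effective lengths (0.10 edgeR, 0.093 DESeq2) and limma on TPM (0.16), and when a library was left out for CFI at 48 h against 24 h (-0.42 to 0.10), CD59 at 72 h against 48 h (-0.023 to 0.062) and CFB at 72 h against 24 h (-0.058 to 0.28). The SERPING1 to C1R plus C1S ratio at 72 h ranged from -0.0082 to 0.68 when a library was left out, and at 24 h was -0.088 with counts in place of TPM. The cause was not tested. With the replicate block, 8, 6 and 5 genes were called against No Dox at 24, 48 and 72 h, 2 and 1 at the steps, and 4 at 72 h against 24 h, where CD46 was at 1.0. SERPING1, at 11 reads over the 24 h libraries, is limited by depth.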

Other observations

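C5AR1, a receptor for the complement fragment C5a, was singled out after its values were seen. It had 50, 43 and 25 reads in the 48 h libraries, against 2, 1 and 3 reads at 24 h, 3, 2 and 9 reads at 72 h and 19, 7 and 9 reads in the No Dox libraries. Each 48 h library was thus above every library of the other groups. The log2 fold change was 4.2 at 48 h against 24 h (SE 0.51, adjusted p 1.446e-06, edgeR) and -3.15 at 72 h against 48 h (SE 0.43, adjusted p 9.762e-06). Against No Dox, C5AR1 was called higher at 48 h (1.73) and lower at 24 h (-2.46) and 72 h (-1.42). Levels stayed at or below 1.99 ± 0.444 CPM (SD, n = 3) in every group.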
